A study of Mus musculus with 18 samples.

Results

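Cytochrome P450 enzymes of families 1, 3 and 4 were described in 18 mouse livers by RNA sequencing. These membrane-bound haem enzymes insert an oxygen atom into small molecules. Cyp1a enzymes oxidise planar aromatic compounds and their genes are induced through the aryl hydrocarbon receptor (Ahr). Cyp3a enzymes hydroxylate steroids and drugs and are induced through the pregnane X receptor (Nr1i2) and the constitutive androstane receptor (Nr1i3). Cyp4a and Cyp4f enzymes hydroxylate the far end of fatty acids and eicosanoids, and Cyp4a10 and Cyp4a14 are classical targets of the fatty acid receptor Ppara. The members were all genes of the count table whose symbol is Cyp followed by 1, 3 or 4, a letter and a number. Of 40 such symbols, 7 carry the pseudogene mark -ps and were left out, which gave 33 members of 52636 gene IDs. They are 2 Cyp1a, 9 Cyp3a, 8 Cyp4a and 9 Cyp4f genes and 5 others (Cyp1b1, Cyp4b1, Cyp4v3, Cyp4x1 and its antisense RNA Cyp4x1os).

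The livers fall into 6 groups of 3 biological replicates. H-KO and H-WT mice, 10 weeks old, carry the conditional allele B6.129X1(FVB)-Hnf4atm1.1Gonz/J of Hnf4a, a nuclear receptor of hepatocytes, together with Albtm1(cre/ERT2)Mtz, a Cre recombinase placed at the albumin gene, switched on by tamoxifen and active in hepatocytes. BH-KO and BH-WT mice, also 10 weeks old, carry in addition B6.129S4(Cg)-Arntltm1Weit/J, a conditional allele of the clock activator Arntl (Bmal1). BH-HF-KO and BH-HF-WT mice are of the BH line, were 45 weeks old; their high-fat feeding began at 10 weeks and lasted 35 weeks, so age and diet change together in any comparison with BH mice. All 6 groups, WT included, received tamoxifen at 10 mg/mL in corn oil on 5 days at 8 weeks, and tissue was collected at ZT8, the eighth hour of the light phase. KO and WT mice of a line have the same strain label, and the sources used here do not say what makes a mouse WT.

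Libraries held 6846471 to 9816124 counts. Values are given as CPM, the counts of a gene scaled to a common, TMM-adjusted library total, and TMM scaling factors were 0.83 to 1.38. Hepatocyte RNA was abundant throughout: Alb took 1.35% to 1.68% of all counts in H-KO libraries and 6.78% to 7.74% in H-WT libraries. It took 1.79% to 3.71% in BH-KO and 6.69% to 8.48% in BH-WT libraries, and 2.68% to 3.72% in BH-HF-KO and 6.18% to 7.71% in BH-HF-WT libraries. Because the Cre recombinase is placed at this gene, its share is not a neutral measure of hepatocyte RNA. Whole-gene counts of the targeted genes do not check the deletions, because a conditional deletion removes part of a gene only. Hnf4a had 564, 657 and 555 CPM in H-KO livers, against 801, 887 and 580 CPM in H-WT livers. Arntl had 17.4, 22.3 and 24.01 CPM in BH-KO livers, against 0.420, 0.734 and 0.798 CPM in BH-WT livers, and 0.884, 2.53 and 1.36 CPM in livers labelled BH-HF-KO, against 1.02, 1.37 and 2.0 CPM in BH-HF-WT livers. BH-KO replicate 1 stood apart from the other BH-KO libraries, with a TMM factor of 0.88 against 1.26 and 1.30, 9.45% against 3.70% and 4.17% mitochondrial counts, and 866 against 499 and 494 CPM of Hnf4a. H-WT replicate 3 had 1082 CPM of Xist, which marks the silenced X chromosome in females, and 5.73 CPM of the Y-linked Ddx3y. The other 17 libraries, labelled in the same way, had at most 3.89 CPM of Xist and at least 115 CPM of Ddx3y. Results that rest on these libraries are also given without them.

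Many members are close copies of each other, and the sources used here do not say how reads that match several genes were counted. Coding sequences of Cyp3a41a and Cyp3a41b were 99.9% identical and shared 93.2% of their 50-base windows. Cyp4a12a and Cyp4a12b were 98.6% identical and shared 54.9% of windows. Cyp3a25 and Cyp3a59 (97.5%), Cyp4a10 and Cyp4a32 (97.2%), Cyp4a10 and Cyp4a31 (96.6%), Cyp4a31 and Cyp4a32 (96.0%), Cyp3a41a and Cyp3a44 (95.8%), Cyp3a41b and Cyp3a44 (95.6%), and Cyp3a11 and Cyp3a41a (95.2%) came next. The split of counts within these pairs is uncertain. The 9 Cyp3a genes lie on chromosome 5 (mm10), and 8 of them between 145345279 and 146113287, while Cyp3a13 stands alone at 137892932 to 137921619. The 8 Cyp4a genes lie on chromosome 4 between 115242084 and 115621602, next to Cyp4b1. Of the 9 Cyp4f genes, 8 lie on chromosome 17 between 32452723 and 32947402, and Cyp4f18 lies on chromosome 8.

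Because Hnf4a is targeted in every group, promoters were searched for the HNF4A letters CAAAGTCCA on both strands. RefSeq promoters (GRCm38.p6, 250 bases before to 50 after a gene's start) were matched for 26 of 33 members. The letters were found in 4 of them, all Cyp3a genes and all on the coding strand, and in 0.475% of all 32851 promoters. They began 109 bases before the start of Cyp3a11 and 95 to 99 bases before those of Cyp3a16, Cyp3a41a and Cyp3a41b. In Cyp3a44 the nearest window, 95 bases before the start, differed by the single substitution C7A, counted from 1 at the first letter of the motif, with the motif's base first. GENCODE M21 begins the Cyp3a11 gene at 145879964, just before these letters, so their distance depends on the annotation. Genes with the letters are close copies of each other, so the 4 finds are not independent. Cyp3a13, which also fell in BH-KO livers, is not among them. Neither are Cyp4f14 and Cyp4v3, whose promoters were searched and which fell in H-KO livers. Cyp3a41b, which has the letters, was called in no KO comparison. The calls of Cyp3a11, Cyp3a16 and Cyp3a41a were each lost when some single libraries were left out. A tie between the letters and the falls was not tested. The 4 promoters below are those of called Cyp3a genes with the letters, and that of Cyp3a44, called in both lines. Capitals mark the motif or, in Cyp3a44, the window with 1 mismatch. Their positions on the minus strand are chr5:145879805-145880104, chr5:145469674-145469973, chr5:145720087-145720386 and chr5:145805825-145806124.
Cyp3a11: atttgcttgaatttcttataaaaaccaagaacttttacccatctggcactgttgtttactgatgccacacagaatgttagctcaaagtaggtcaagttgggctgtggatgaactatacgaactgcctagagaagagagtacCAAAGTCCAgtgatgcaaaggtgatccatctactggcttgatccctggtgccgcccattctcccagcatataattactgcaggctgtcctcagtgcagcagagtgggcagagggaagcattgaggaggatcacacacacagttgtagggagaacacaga
Cyp3a16: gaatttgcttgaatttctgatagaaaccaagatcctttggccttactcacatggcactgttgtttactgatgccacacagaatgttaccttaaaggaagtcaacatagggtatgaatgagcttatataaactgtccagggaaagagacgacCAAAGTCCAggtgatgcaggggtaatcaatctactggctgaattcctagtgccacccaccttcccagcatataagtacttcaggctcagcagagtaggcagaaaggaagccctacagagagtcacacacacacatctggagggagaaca
Cyp3a41a: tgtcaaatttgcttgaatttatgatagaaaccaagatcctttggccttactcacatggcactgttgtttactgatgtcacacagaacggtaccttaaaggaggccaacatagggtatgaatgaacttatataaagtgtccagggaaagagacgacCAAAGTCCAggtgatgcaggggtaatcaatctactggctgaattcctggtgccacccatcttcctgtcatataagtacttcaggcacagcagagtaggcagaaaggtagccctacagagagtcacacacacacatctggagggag
Cyp3a44: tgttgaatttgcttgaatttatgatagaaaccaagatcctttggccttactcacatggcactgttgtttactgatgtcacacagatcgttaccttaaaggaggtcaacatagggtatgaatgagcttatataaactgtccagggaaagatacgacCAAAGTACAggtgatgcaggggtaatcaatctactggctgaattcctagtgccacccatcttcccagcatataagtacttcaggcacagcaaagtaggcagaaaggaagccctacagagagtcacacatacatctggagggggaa
Of the other letters searched, which share no overlap with this motif in the members shown, the HNF1 letters GTTAATNAT were found in 3 of 26 members (Cyp4a30b, Cyp4a32 and Cyp4f40) and in 0.801% of all promoters. The D-box TTATGCAA was found in 1 (Cyp4f14) and in 0.743% of all, the E-box CACGTG in 1 (Cyp4v3) and in 7.15% of all, and the Ahr letters GCGTG in 6 and in 32.4% of all, Cyp1a1 among the 6. The DR1-type start AGGTCAAAG was found in none of the 26, and in 0.426% of all promoters.

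Of the 33 members, 24 had enough counts to be tested. In H-KO against H-WT livers, 13 of the 24 fell and 2 rose (edgeR quasi-likelihood test, adjusted p under 0.05 over 13958 genes). The background was 34.9% of all tested genes called, 19.1% lower and 15.8% higher. The median log2 fold change of the tested members was -1.61, and that of all tested genes -0.0004. Without H-WT replicate 3 the members' median was -0.96. In BH-KO against BH-WT livers, 6 of 24 fell and 1 rose, where 28.6% of all genes were called (14.2% lower and 14.4% higher), and the median of members was -0.70, against 0.03 for all genes. Without BH-KO replicate 1 the members' median was -1.73, and 11 fell and 2 rose, where 41.8% of all genes were called (22% lower and 19.8% higher). Without BH-WT replicate 2, 3 fell and none rose, where 20.4% were called (10.2% in each direction). Without H-WT replicate 3, 7 fell and 1 rose in H-KO livers, where 28.6% were called (16.2% lower and 12.4% higher). With upper-quartile scaling the median of all genes in H-KO against H-WT moved up by 0.154, and the share of calls that were higher was 61.8% in place of 45.3%. No called member changed direction with upper-quartile scaling or DESeq2's size factors. Comparisons that use the same livers are not independent of each other.

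Livers labelled BH-HF-KO did not differ detectably from BH-HF-WT livers in any member. Of the 24 tested, 0 were called, at a background of 0% (0 of 13958 genes), 0 had an unadjusted p under 0.05, where 488 of all genes had, and DESeq2 also called 0. Whether the deletions were present in these livers cannot be told from the counts. Hnf4a had 842, 976.5 and 818.5 CPM in livers labelled BH-HF-KO, against 767, 781 and 839 CPM in BH-HF-WT livers, and Arntl overlapped between these groups as well. The members' median log2 fold change was 0.02, and that of all genes -0.002. In the interaction contrast of the KO effects in BH-HF and BH livers, 0 of 24 were called, where 6.1% of all genes were (3.45% higher and 2.65% lower). An unadjusted p under 0.05 was found for 5 members, where 3224 of the 13958 genes had one. DESeq2 called 3 members and 1315 of all genes. When BH-KO replicate 1 was left out, 6 members were higher and 1 lower in this contrast, where 22% of all genes were called (12.7% higher and 9.33% lower). The 6 were Cyp4f14 (2.75 on the log2 scale), Cyp4v3 (2.81), Cyp3a13 (2.76), Cyp4a10 (4.28), Cyp4a12a (6.32) and Cyp4f13 (0.43), and the 1 was Cyp4f16 (-1.92). Between WT livers of the lines, BH-WT against H-WT, 0 of 24 members were called, where 0.165% of all genes were (0.0573% higher and 0.107% lower). Here 4 members had an unadjusted p under 0.05, where 1301 of the 13958 genes had one. DESeq2 called 0 members and 101 of all genes. Without both H-WT replicate 3 and BH-KO replicate 1, Cyp4a12a was lower in BH-WT (-4.09 on the log2 scale, adjusted p = 0.0486), where 0.544% were called (0.251% higher and 0.294% lower). BH-KO replicate 1 is in neither of these groups and enters only through the fit shared by all groups. Without H-WT replicate 3 alone, 0 of 24 members were called.

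**Figure D1:**
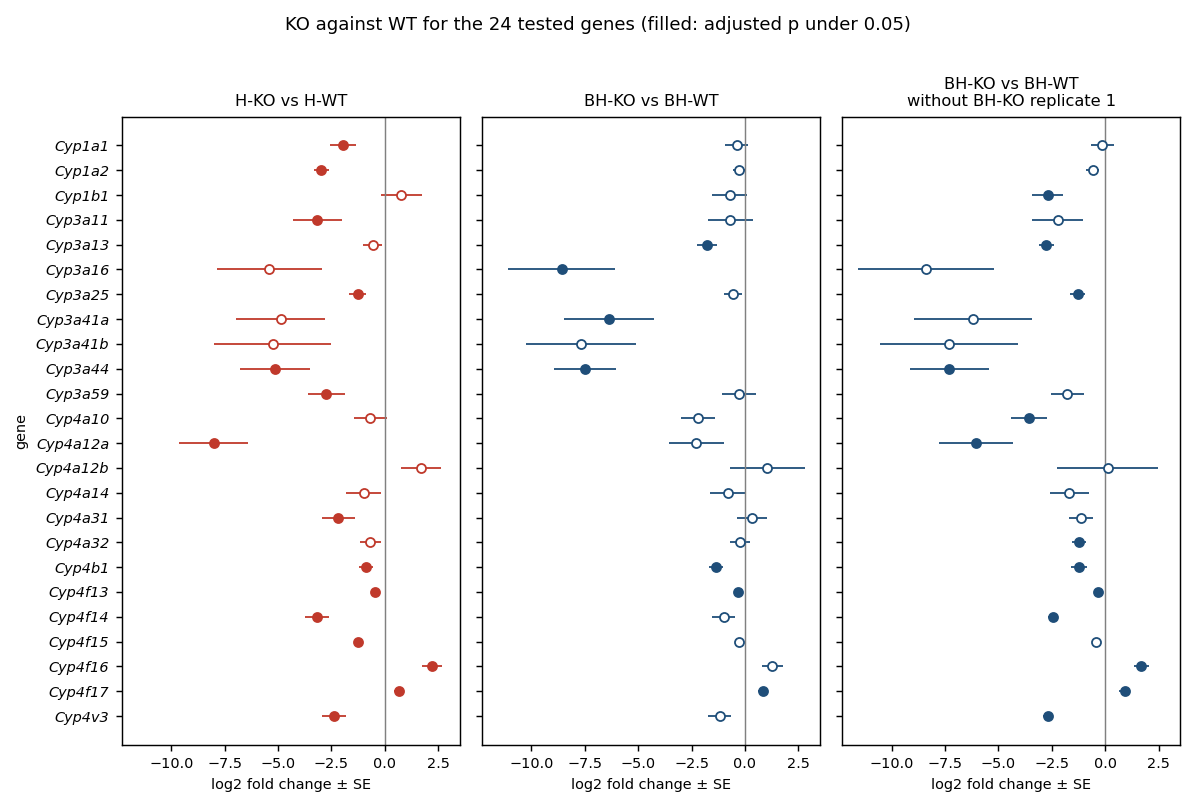
Log2 fold change with its standard error (horizontal axis) of the 24 tested members (vertical axis) for H-KO against H-WT, BH-KO against BH-WT, and BH-KO against BH-WT without BH-KO replicate 1, from edgeR; filled points have an adjusted p under 0.05. Falls outnumber rises in all 3 panels (13 and 2, 6 and 1, 11 and 2), and Cyp4f14 and Cyp4v3 are called in BH-KO only when replicate 1 is left out.

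Counts of the members together fell to 0.314% to 0.422% of each H-KO library, against 0.978% to 1.63% of each H-WT library, with no overlap. Much of the Cyp3a part of this sum is 1 gene: Cyp3a11 averaged 880 of 1334 summed Cyp3a CPM in H-KO and 7843 of 8906 in H-WT livers. Summed Cyp4a genes averaged 914 CPM in H-KO and 2028 CPM in H-WT livers. All members together made 1.12%, 0.293% and 0.362% of BH-KO replicates 1, 2 and 3, against 0.921% to 1.04% in BH-WT, so that replicate 1 lay above all BH-WT libraries and replicates 2 and 3 below them. They made 0.233% to 0.356% in livers labelled BH-HF-KO and 0.266% to 0.366% in BH-HF-WT livers. In bulk liver, fewer cells of a type and less RNA per cell cannot be told apart. Per kilobase of exon, Cyp3a11 had the highest level of all members in H-WT livers (1540 ± 670 CPM per kb, SD, n = 3) and in BH-WT livers (1252 ± 66.2). In H-WT the next were Cyp4a14 (423 ± 145), Cyp3a25 (356 ± 82.3) and Cyp1a2 (325 ± 106), which lay within 1 SD of each other. In H-KO livers Cyp4a14 (214 ± 129), Cyp3a11 (173 ± 8.01), Cyp4a10 (154 ± 62.1) and Cyp3a25 (148 ± 29.1) led and did not differ beyond their spread, and Cyp1a2 was sixth at 41.3 ± 9.93 CPM per kb. This order depends on the annotated exon length, 5093 bases for Cyp3a11 against 2601 for Cyp4a14 and 2083 for Cyp3a25. Not divided by length, H-KO means were 880 ± 40.8 CPM for Cyp3a11 and 558 ± 335 CPM for Cyp4a14. In both high-fat groups Cyp1a2 led (367 ± 104 CPM per kb in livers labelled BH-HF-KO, 367 ± 66.7 for BH-HF-WT). Cyp3a25 came next (287 ± 89.5 and 294 ± 94.1), and in both groups the gap was under the SD of Cyp3a25.

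Among the Cyp3a genes, 4 of 8 tested fell and none rose in H-KO livers, and 4 of 8 fell and none rose in BH-KO livers. Cyp3a44 is the 1 gene in both counts. Of all tested genes, 19.1% were lower in H-KO and 14.2% in BH-KO livers. Cyp3a11, a main steroid- and drug-hydroxylating enzyme of mouse liver, had 892, 835 and 914 CPM in H-KO livers, against 6388, 11744 and 5398 CPM in H-WT livers. The 3 H-KO livers lay close together and far below every H-WT liver. The log2 fold change was -3.16 ± 1.15 (SE, adjusted p = 0.046), and without any 1 of the 6 libraries the adjusted p was 0.0607 to 0.117. In BH livers Cyp3a11 had 9188, 1035 and 1710 CPM in KO and 6641, 5998 and 6496 CPM in WT. Replicate 1 of BH-KO was above all WT livers and the other BH-KO livers far below them, and the difference was not called (log2 -0.68 ± 1.06, adjusted p = 0.654). In the high-fat groups it had 181, 22.2 and 426 CPM in livers labelled KO and 59.9, 986 and 95.02 CPM in WT livers, a wide overlapping spread. All 6 values lay below every BH-KO and BH-WT value. BH-HF-WT against BH-WT was not called for this gene (log2 -4.07 ± 1.19, adjusted p = 0.0565).

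Cyp3a25, which hydroxylates testosterone, had 246, 367 and 310 CPM in H-KO livers, against 558, 765 and 899 CPM in H-WT livers. The groups did not overlap, and it fell by 1.27 ± 0.41 on the log2 scale (adjusted p = 0.0251). Its close copy Cyp3a59 had 2.90, 5.29 and 4.86 CPM in H-KO livers, against 7.43, 16.02 and 64.6 CPM in H-WT livers, and fell by 2.75 ± 0.86 (adjusted p = 0.0241), also without overlap. The highest Cyp3a59 value of the H-WT group belongs to replicate 3. Without that library neither Cyp3a25 (log2 -1.11, adjusted p = 0.0821) nor Cyp3a59 (-1.43, adjusted p = 0.193) was called. Both were also lost without H-KO replicate 1 (adjusted p = 0.0924 and 0.0832) or H-KO replicate 3 (0.0659 and 0.062), Cyp3a25 without H-WT replicate 2 (0.0555) and Cyp3a59 without H-KO replicate 2 (0.0567). In BH livers Cyp3a25 had 919, 385 and 231 CPM in KO and 899, 627 and 732 CPM in WT. Cyp3a59 had 37.1, 6.93 and 3.96 CPM in KO, against 21.8, 15.8 and 17.9 CPM in WT. For both genes, BH-KO replicate 1 was above all 3 WT livers and the other BH-KO livers below them. Neither was called there, but without BH-KO replicate 1 Cyp3a25 fell by 1.29 ± 0.34 (adjusted p = 0.00682). The high-fat livers, at 384 to 731 CPM of Cyp3a25 in those labelled KO and 446 to 829 CPM in WT, overlapped.

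Cyp3a13, a Cyp3a gene outside the main cluster, had 144, 40.2 and 34.0 CPM in BH-KO livers, against 270, 238 and 242 CPM in BH-WT livers. All BH-KO livers were below all BH-WT livers, and replicates 2 and 3 were lowest of all 18. It fell by 1.79 ± 0.46 on the log2 scale (adjusted p = 0.0119). Without BH-KO replicate 1 it fell by 2.75 ± 0.35 (adjusted p = 2.38e-05), and without BH-KO replicate 2 it was not called (-1.497, adjusted p = 0.0537). In H livers it had 169, 139 and 109 CPM in KO and 197, 156 and 267 CPM in WT, which overlapped (-0.57 ± 0.45, adjusted p = 0.358). The difference between these KO effects was -1.22 ± 0.64 (adjusted p = 0.268). With BH-KO replicate 1 left out it was -2.18 ± 0.43 (adjusted p = 0.00748). In that contrast 2 members (Cyp1a2 and Cyp4f15) were then higher and 2 (Cyp3a13 and Cyp1b1) lower, where 8.83% of all genes were called (4.97% higher and 3.85% lower). The high-fat livers had 274, 519 and 223 CPM in those labelled KO and 301, 304 and 408 CPM in WT, and overlapped.

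**Figure D2:**
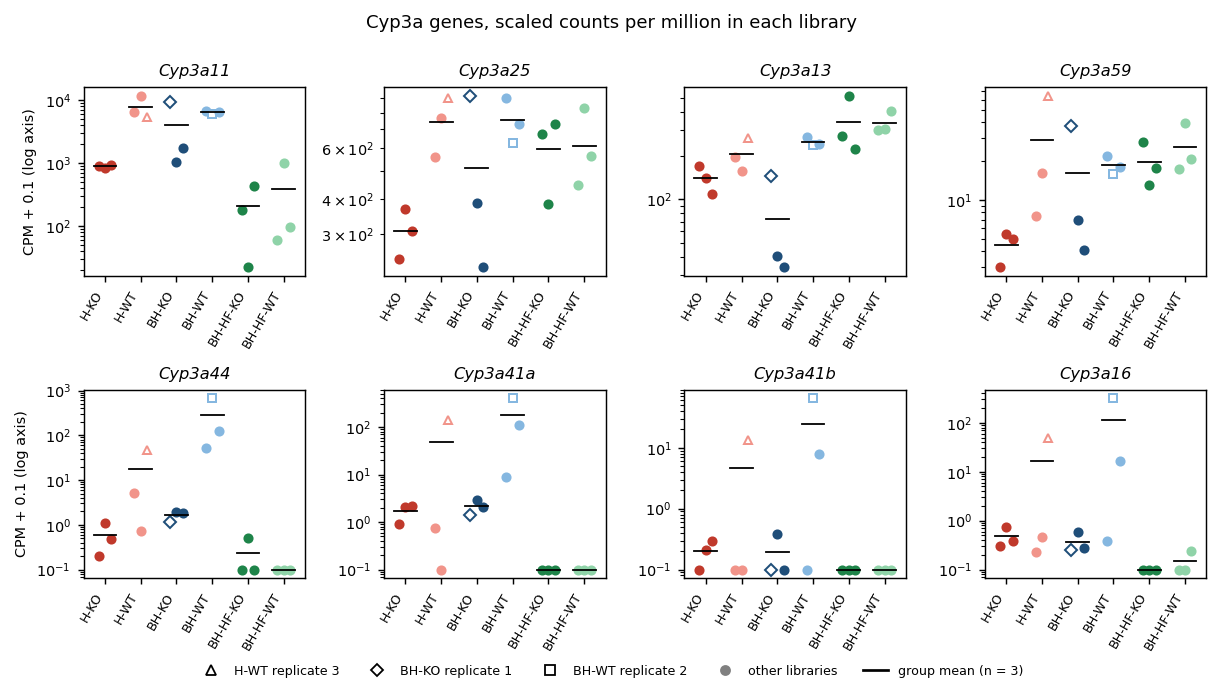
Scaled CPM plus 0.1 (log axis, its range set for each gene) of 8 Cyp3a genes in the 18 libraries by group, with a line at the group mean; open symbols mark H-WT replicate 3, BH-KO replicate 1 and BH-WT replicate 2. Cyp3a11 lies at 835 to 914 CPM in H-KO and at 5398 to 11744 CPM in both 10-week WT groups, while Cyp3a44, Cyp3a41a, Cyp3a41b and Cyp3a16 are highest in BH-WT replicate 2.

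The other Cyp3a genes with calls are known in mice for higher expression in females (Cyp3a41a and Cyp3a44) or in young animals (Cyp3a16). Cyp3a44 had 0.1002, 0.971 and 0.389 CPM in H-KO livers, against 4.91, 0.616 and 46.8 CPM in H-WT livers, and 1.04, 1.80 and 1.76 CPM in BH-KO livers, against 51.1, 675 and 124 CPM in BH-WT livers. The H groups overlapped and the BH groups did not. In BH-KO livers it fell by 7.47 ± 1.46 on the log2 scale (adjusted p = 0.00359), a call that held without any 1 of the 6 libraries (adjusted p 0.00342 to 0.0207). In H-KO livers it fell by 5.14 ± 1.65 (adjusted p = 0.031), but without H-WT replicate 3 the log2 fold change was -2.48 (adjusted p = 0.302). That call was also lost without any 1 of the H-KO replicates (adjusted p 0.0652 to 0.0951). Cyp3a41a had 1.34, 2.75 and 2.02 CPM in BH-KO livers, against 8.96, 406 and 111 CPM in BH-WT livers. These groups did not overlap either, and it fell by 6.38 ± 2.11 (adjusted p = 0.0482). Summed with Cyp3a41b it fell by 6.50 ± 2.16 (adjusted p = 0.0489). Cyp3a16 had 0.148, 0.475 and 0.176 CPM in BH-KO livers, against 0.280, 319 and 16.3 CPM in BH-WT livers, and fell by 8.58 ± 2.51 (adjusted p = 0.025). The lowest BH-WT liver lay within the BH-KO range for Cyp3a16. Cyp3a41b had at most 0.285 CPM in BH-KO livers, against 0, 65.2 and 7.82 CPM in BH-WT livers, and was not called. Without BH-WT replicate 2, neither Cyp3a41a (log2 -4.83, adjusted p = 0.136) nor Cyp3a16 (-4.81, adjusted p = 0.14) was called. Without any 1 of the BH-KO replicates both calls were lost too, at adjusted p 0.111 to 0.137 for Cyp3a41a and 0.061 to 0.0893 for Cyp3a16, and Cyp3a41a was lost without BH-WT replicate 3 (0.0704).

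BH-WT replicate 2, the liver with the most Cyp3a44, Cyp3a41a and Cyp3a16, had 115 CPM of Ddx3y and 0.245 CPM of Xist. It also had the highest summed level of 6 Kupffer cell markers of any library: they summed to 33.7 to 94.2 CPM in BH-KO livers and 128 to 791 CPM in BH-WT livers, and all 6 fell in BH-KO, or 3 of them with BH-WT replicate 2 left out. Their part in these results was not tested. H-WT replicate 3, with its high Xist, had 141 CPM of Cyp3a41a and 49.8 CPM of Cyp3a16, while the other H-WT livers had at most 0.664 CPM of either. Of 10 other female-biased liver genes, 3 fell in H-KO and none rose, where 19.1% of all genes were lower and 15.8% higher. Among the 3 were Hao2 and Cyp2b13, both highest in H-WT replicate 3. With that library left out, none of the 10 fell and 4 rose; Hao2 (log2 -2.04, adjusted p = 0.0807) and Cyp2b13 (-1.06, adjusted p = 0.48) were then not called. In BH-KO 1 fell (Cyp2a4) and 1 rose (Prom1), and the Cyp2a4 call was lost without BH-KO replicate 1 (adjusted p = 0.0517) or BH-WT replicate 2 (0.0635). With BH-KO replicate 1 left out, 1 other gene of the 10 fell and 1 rose, where 22% of all genes were lower and 19.8% higher. With BH-WT replicate 2 left out, none fell and 1 rose, where 10.2% were called in each direction. Cyp3a16, Cyp3a41a, Cyp3a41b and Cyp3a44 were nearly absent from all 6 high-fat livers, with at most 0.400 CPM. Cyp3a44 was at 0 in all 3 BH-HF-WT livers, at least 2157-fold lower than in BH-WT (taking 3 counts over the group, adjusted p = 0.00981), or at least 667-fold lower with BH-WT replicate 2 left out. Cyp3a41a was also at 0 there, at least 1333-fold lower, or 457-fold with BH-WT replicate 2 left out, but missed the threshold (adjusted p = 0.0668).

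**Figure D3:**
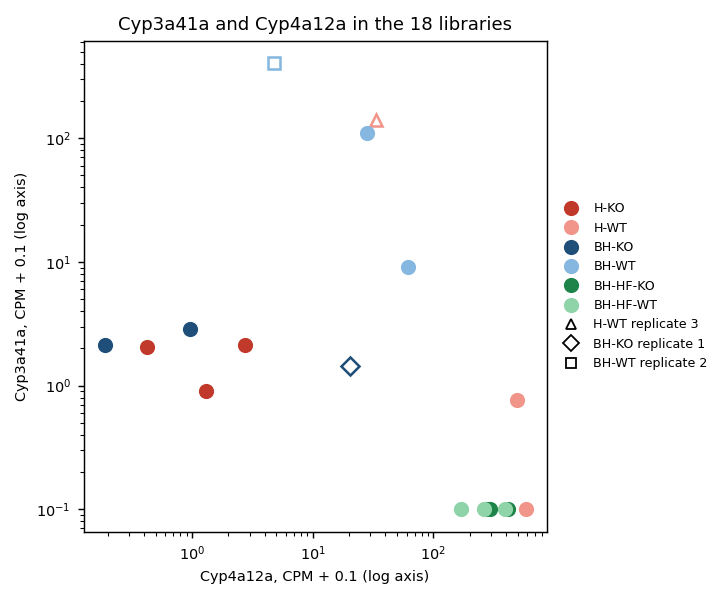
Cyp4a12a (horizontal) against Cyp3a41a (vertical), both as scaled CPM plus 0.1 on log axes, with 1 symbol per library, coloured by group; several high-fat symbols overlie each other at 0 CPM of Cyp3a41a. Livers above 100 CPM of Cyp3a41a (H-WT replicate 3, BH-WT replicates 2 and 3) have 4.65 to 33.3 CPM of Cyp4a12a, the high-fat livers have 168 to 418 CPM of Cyp4a12a and none of Cyp3a41a, and the H-KO livers are low in both.

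Of 6 tested Cyp4a genes, 2 fell and none rose in H-KO livers, and none was called in BH-KO livers. Of all tested genes, 34.9% were called in H-KO (19.1% lower) and 28.6% in BH-KO, so 2 of 6 is near the background. Cyp4a12a, the male-predominant enzyme that makes the eicosanoid 20-HETE from arachidonic acid, had 1.20, 0.324 and 2.62 CPM in H-KO livers, against 490, 582 and 33.3 CPM in H-WT livers. Every H-KO liver lay far below every H-WT liver, and the lowest H-WT value was that of replicate 3. It fell by 8.02 ± 1.63 on the log2 scale (adjusted p = 0.002) and stayed called without any 1 of the 6 libraries (adjusted p 0.00146 to 0.0129). Its near-identical copy Cyp4a12b had 9.82, 9.82 and 22.6 CPM in H-KO livers, against 1.46, 10.7 and 0.559 CPM in H-WT livers. The copies thus differed in direction, although Cyp4a12b was not called (1.70 ± 0.92, adjusted p = 0.172). Summed, they fell by 4.59 ± 1.29 (adjusted p = 0.0138). In BH livers Cyp4a12a had 20.2, 0.854 and 0.0880 CPM in KO, against 62.0, 4.65 and 27.9 CPM in WT. The groups overlapped and the gene was not called (-2.27 ± 1.28, adjusted p = 0.198). It fell by 6.05 ± 1.73 (adjusted p = 0.0154) once BH-KO replicate 1 was left out. It was high again in the high-fat groups, at 418, 272 and 293 CPM in livers labelled KO and 389, 261 and 168 CPM in WT livers, which overlapped. Cyp4a12b rose by 5.86 ± 1.28 in BH-HF-WT (9.72 to 52.2 CPM) against BH-WT livers (0.122 to 0.840 CPM, adjusted p = 0.0187). That call was lost without BH-WT replicate 2 (adjusted p = 0.0969) or 3 (0.055), and for the sum of both copies (3.22 ± 1.21, adjusted p = 0.119). Of 8 other male-biased genes, 5 fell in H-KO (Mup3, Mup20, Elovl3, Cyp7b1 and Nudt7) and 1, Elovl3, rose in BH-KO, where its 3 values were 171, 6.74 and 1.06 CPM. Of all genes, 19.1% were lower in H-KO and 14.4% higher in BH-KO. With BH-KO replicate 1 left out Elovl3 was not called (log2 0.75, adjusted p = 0.603), nor with BH-WT replicate 2 left out (adjusted p = 0.0987). Without BH-KO replicate 1, 4 of the 8 fell in BH-KO, among them Mup3, Cyp7b1 and Nudt7, and without BH-WT replicate 2 none was called.

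The Ppara targets among the Cyp4a genes varied widely between livers of a group. Cyp4a14 had 451, 932 and 289 CPM in H-KO and 762, 1508 and 1033 CPM in H-WT livers, and Cyp4a10 had 296, 468 and 211 CPM in H-KO and 295, 699 and 566 CPM in H-WT livers. Both overlapped between groups, and neither was called (log2 -0.98 ± 0.82 and -0.68 ± 0.78, adjusted p = 0.386 and 0.542). Cyp4a31, a closely related copy, had 3.10, 2.80 and 2.82 CPM in H-KO livers, against 5.97, 17.4 and 16.1 CPM in H-WT livers. These did not overlap, and it fell by 2.17 ± 0.76 (adjusted p = 0.0394). The call was lost without any library but H-WT replicate 1 (adjusted p 0.0922 to 0.106). In BH livers Cyp4a31 had 34.3, 2.85 and 7.83 CPM in KO and 19.04, 8.56 and 7.50 CPM in WT, which overlapped (0.32 ± 0.70, adjusted p = 0.757). In BH-KO livers Cyp4a10 had 249, 38.8 and 46.9 CPM, against 447, 746 and 337 CPM in BH-WT livers. These did not overlap but narrowly missed the threshold (log2 -2.20 ± 0.81, adjusted p = 0.0567). With BH-KO replicate 1 left out, Cyp4a10 fell by 3.57 ± 0.83 (adjusted p = 0.00482) and Cyp4a32 by 1.24 ± 0.32 (adjusted p = 0.00682). With all libraries Cyp4a32 was called nowhere and averaged 26.0 ± 23.1 CPM in BH-KO and 30.2 ± 15.2 CPM in BH-WT livers.

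Cyp4a10 and Cyp4a14 were lower in the older high-fat WT livers. Cyp4a14 had 5.25, 11.2 and 44.2 CPM in BH-HF-WT livers, against 487, 464 and 286 CPM in BH-WT livers, and fell by 4.36 ± 0.94 (adjusted p = 0.0176). Cyp4a10 had 3.97, 23.6 and 49.0 CPM in BH-HF-WT livers, against 447, 746 and 337 CPM in BH-WT livers, and fell by 4.32 ± 0.89 (adjusted p = 0.0153). Neither gene's groups overlapped. Both calls were lost without BH-WT replicate 2 (adjusted p = 0.0566 for Cyp4a14 and 0.0558 for Cyp4a10) or BH-HF-WT replicate 2 (0.0833 and 0.0697). Of the livers labelled KO on this diet, Cyp4a14 had 54.8, 18.1 and 139 CPM and Cyp4a10 had 42.7, 23.6 and 57.5 CPM, overlapping BH-HF-WT. In all, 5 of 24 members were called in BH-HF-WT against BH-WT, with Cyp3a44, Cyp4a10 and Cyp4a14 lower and Cyp4a12b and Cyp4f15 higher, where 6.99% of all genes were called (4.21% lower and 2.79% higher). Without BH-WT replicate 2 the count was 2 (Cyp3a44 and Cyp4f15), where 1.62% were called (1.05% lower and 0.573% higher). Of 15 other Ppara targets, 2 fell here (Ehhadh and Vnn1) and 1 rose (Creb3l3). Of 8 other targets of the pregnane X and constitutive androstane receptors, 3 fell and none rose. Of 10 other female-biased genes 4 fell, and of 8 other male-biased genes 2 rose (Hsd3b5 and Mup20). Kupffer cell markers summed to 47.9 to 146 CPM in BH-HF-WT and 128 to 791 CPM in BH-WT livers, and 1 of the 6, Clec4f, fell. With BH-WT replicate 2 left out, Clec4f and the named Ppara targets and male-biased genes were not called, 1 pregnane X or constitutive androstane receptor target (Cyp2b10) fell, and 2 female-biased genes fell. The markers' part in these differences was not tested.

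**Figure D4:**
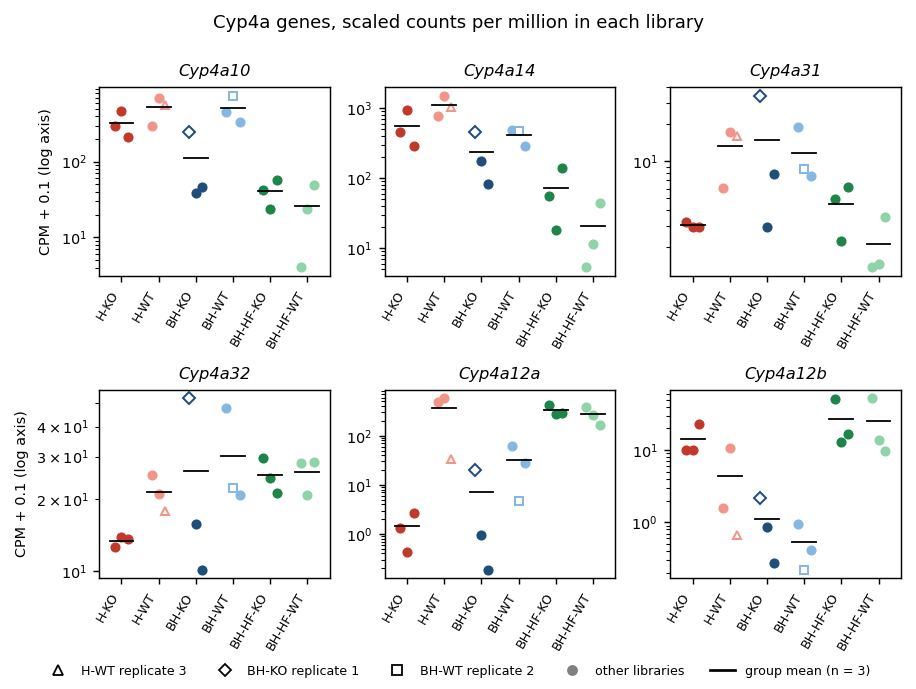
Scaled CPM plus 0.1 (log axis, its range set for each gene) of 6 Cyp4a genes in the 18 libraries by group, with a line at the group mean and open symbols for the libraries named in the key. Cyp4a12a is at or below 2.62 CPM in H-KO and at 168 to 418 CPM in all high-fat livers, and Cyp4a10 and Cyp4a14 are lower in BH-HF-WT than in BH-WT.

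Both Cyp1a genes were called lower in H-KO livers, Cyp1a1 on few counts. Cyp1a2, the liver enzyme that oxidises caffeine and aromatic amines, had 74.4, 69.0 and 106 CPM in H-KO livers, against 509, 554 and 899 CPM in H-WT livers. The groups lay far apart, and it fell by 2.98 ± 0.34 on the log2 scale (adjusted p = 2.65e-05, 6.01e-05 to 0.000386 without 1 library). In BH livers it had 574, 307 and 344 CPM in KO and 606, 312 and 551 CPM in WT, which overlapped (-0.26 ± 0.32, adjusted p = 0.556). The high-fat livers had 907, 503 and 806 CPM in those labelled KO and 868, 749 and 600 CPM in WT, and overlapped as well. The KO effect in BH minus that in H was 2.71 ± 0.46 (adjusted p = 0.00371) and stayed called without any 1 of 12 libraries (2.39 to 2.93, adjusted p 0.00378 to 0.0153). In this interaction contrast 2 of 24 members were higher, Cyp1a2 and Cyp4f15, and none lower, where 6.09% of all genes were called (3.79% higher and 2.3% lower). Compared directly, BH-KO livers exceeded H-KO livers in Cyp1a2 by 2.29 ± 0.33 (adjusted p = 0.000345), with no overlap.

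Cyp1a1, mostly silent in liver without an inducer, averaged 0.303 ± 0.0929 CPM in H-KO and 1.20 ± 0.680 CPM in H-WT livers (SD, n = 3 each). Its raw counts were only 4, 2 and 3 in H-KO livers and 12, 13 and 3 in H-WT livers. At 0.419 CPM, H-WT replicate 3 lay close to H-KO replicate 1 (0.401 CPM). Cyp1a1 fell by 1.95 ± 0.60 on the log2 scale (adjusted p = 0.0197). The call was lost without H-KO replicate 2 (adjusted p = 0.0688) or 3 (0.0581), or H-WT replicate 1 (0.0681) or 2 (0.0769). In BH-KO and BH-WT livers it averaged 0.875 ± 0.398 and 1.19 ± 0.322 CPM and was not called. Ahr itself was not called in H-KO (log2 -0.38 ± 0.26, adjusted p = 0.273) or in BH-KO (0.40 ± 0.25, adjusted p = 0.241), but was higher in BH-KO than in H-KO livers (1.35 ± 0.26, adjusted p = 0.00294). It had 60.7, 69.8 and 79.7 CPM in BH-KO livers, against 27.4, 25.1 and 29.9 CPM in H-KO livers, without overlap. Its partner Arnt rose in BH-KO against BH-WT (0.44 ± 0.11, adjusted p = 0.009). Of 4 other Ahr targets, 2 had enough counts, and 1 of them, Tiparp, rose in H-KO (0.81 ± 0.26, adjusted p = 0.0247). Cyp1b1, known mainly from tissues outside the liver, had 9.198, 1.14 and 0.616 CPM in BH-KO and 9.80, 5.99 and 1.28 CPM in BH-WT livers, and was called in no comparison of all libraries. It fell by 2.70 ± 0.74 (adjusted p = 0.00885) when BH-KO replicate 1 was left out.

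The 5 tested Cyp4f genes split in H-KO livers, where 3 fell and 2 rose. Among all tested genes, 19.1% were lower there and 15.8% higher. Cyp4f14, which hydroxylates leukotriene B4 and vitamin K, had 23.8, 20.7 and 30.1 CPM in H-KO livers, against 197, 204 and 274 CPM in H-WT livers. It fell by 3.17 ± 0.57 on the log2 scale (adjusted p = 0.00092). Cyp4f15 had 69.3, 59.1 and 73.2 CPM in H-KO livers, against 138, 158 and 184 CPM in H-WT livers, and fell by 1.25 ± 0.16 (adjusted p = 5.03e-05). Cyp4f13 had 44.6, 43.6 and 50.6 CPM in H-KO livers, against 59.9, 67.4 and 64.3 CPM in H-WT livers, and fell by 0.46 ± 0.10 (adjusted p = 0.0019). None of the 3 genes had overlapping groups, and all 3 stayed called without any 1 library (highest adjusted p = 0.0128). Cyp4f16 moved the other way, with 13.8, 13.9 and 12.9 CPM in H-KO livers, against 3.05, 2.34 and 3.36 CPM in H-WT livers. It rose by 2.21 ± 0.48 (adjusted p = 0.00241), without overlap and also without any 1 library (highest adjusted p = 0.0145). Cyp4f17 had 11.1, 9.93 and 9.33 CPM in H-KO livers, against 6.64, 7.76 and 4.61 CPM in H-WT livers. It rose by 0.67 ± 0.24 (adjusted p = 0.0421), a call lost without any library but H-WT replicate 2 (adjusted p 0.0622 to 0.166).

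Several Cyp4 genes set BH-KO replicate 1 apart from the other BH-KO livers. Cyp4f14 had 227, 35.5 and 37.3 CPM in BH-KO livers, against 223, 149 and 228 CPM in BH-WT livers. Cyp4v3, the mouse form of the fatty acid hydroxylase that is mutated in Bietti crystalline dystrophy in humans, had 629, 96.3 and 104 CPM in BH-KO livers, against 554, 677 and 661 CPM in BH-WT livers. Cyp4f16 had 2.52, 12.6 and 10.5 CPM in BH-KO livers, against 3.22, 3.91 and 3.51 CPM in BH-WT livers. For all 3 genes, replicate 1 was at or near the WT values and the other BH-KO livers lay far from them, so the groups overlapped. None was called (adjusted p = 0.168 for Cyp4f14, 0.104 for Cyp4v3 and 0.0536 for Cyp4f16). Without BH-KO replicate 1, Cyp4f14 fell by 2.46 ± 0.23 (adjusted p = 5.17e-07), Cyp4v3 fell by 2.65 ± 0.23 (adjusted p = 2.49e-07) and Cyp4f16 rose by 1.69 ± 0.36 (adjusted p = 0.00138). In H livers Cyp4v3 had 94.1, 122 and 107 CPM in KO, against 635, 638 and 414 CPM in WT. It fell by 2.38 ± 0.55 (adjusted p = 0.00404) without overlap.

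Other Cyp4 genes did not single out that library. Cyp4f13 had 50.6, 53.5 and 49.1 CPM in BH-KO livers, against 71.1, 58.2 and 64.0 CPM in BH-WT livers. It fell by 0.34 ± 0.10 (adjusted p = 0.0192), without overlap, and the call was lost without BH-KO replicate 3 (adjusted p = 0.0734) or BH-WT replicate 1 (0.0864), or with upper-quartile scaling (0.0671). Cyp4f17 had 10.2, 11.96 and 13.02 CPM in BH-KO livers, against 9.10, 6.36 and 4.31 CPM in BH-WT livers, and rose by 0.83 ± 0.24 (adjusted p = 0.0191). That call was lost without BH-KO replicate 2 (adjusted p = 0.0536) or 3 (0.0711), or BH-WT replicate 2 (0.0593) or 3 (0.0806). Cyp4b1, best known from the lung, had 2.37, 3.32 and 2.99 CPM in BH-KO livers, against 4.90, 10.5 and 6.86 CPM in BH-WT livers. It fell by 1.35 ± 0.33 (adjusted p = 0.00829), without overlap, and was not called without BH-WT replicate 2 (-1.001, adjusted p = 0.0524). In H livers Cyp4b1 had 7.41, 7.77 and 3.60 CPM in KO, against 9.29, 13.9 and 11.2 CPM in WT. It fell by 0.88 ± 0.31 (adjusted p = 0.0392), but not with upper-quartile scaling (-0.72, adjusted p = 0.0821). The call was also lost without H-KO replicate 1 (0.0505) or 3 (0.163), or H-WT replicate 2 (0.145) or 3 (0.0724).

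**Figure D5:**
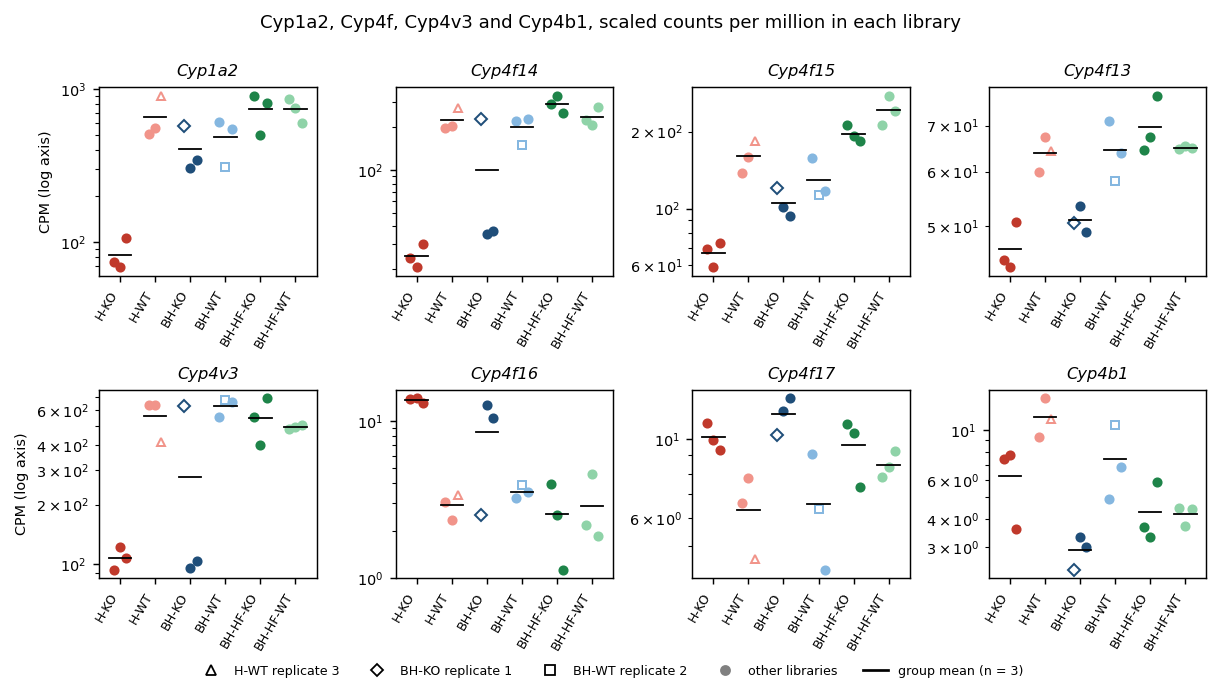
Scaled CPM (log axis, its range set for each gene) of Cyp1a2, 5 Cyp4f genes, Cyp4v3 and Cyp4b1 in the 18 libraries by group, with a line at the group mean and open symbols for the libraries named in the key. Cyp4f14 and Cyp4v3 are low in all H-KO livers and in BH-KO replicates 2 and 3 but not in BH-KO replicate 1, whereas Cyp1a2 is low in H-KO livers and overlaps between BH-KO and BH-WT.

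Cyp4f15 differed in its KO effect between the lines. It had 120, 101 and 93.9 CPM in BH-KO livers, against 158, 113 and 118 CPM in BH-WT livers, which overlapped (log2 -0.30 ± 0.16, adjusted p = 0.158). The KO effect in BH minus that in H was 0.95 ± 0.22 (adjusted p = 0.0208). It was no longer called without H-KO replicate 2 (0.87, adjusted p = 0.0627), H-WT replicate 3 (0.84, adjusted p = 0.0509) or BH-WT replicate 2 (0.86, adjusted p = 0.0596). In BH-HF-WT livers it had 212, 276 and 240 CPM and lay above every BH-WT liver, a rise of 0.91 ± 0.16 (adjusted p = 0.00513). Livers labelled BH-HF-KO, at 212, 191 and 184 CPM, reached only the lowest of these values, a difference that was not called (-0.31 ± 0.15, adjusted p = 1). In the other called members, ranges of the high-fat groups overlapped: Cyp4f14 had 250 to 333 CPM in those labelled KO and 207 to 277 CPM in WT. Cyp4v3 had 398 to 688 CPM in those labelled KO and 480 to 504 CPM in WT.

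Compared directly, BH-KO and H-KO livers differed in 5 of 24 members, 3 higher and 2 lower in BH-KO, where 16.4% of all genes were called (10.1% higher and 6.29% lower). Besides Cyp1a2, BH-KO livers were higher in Cyp4f15 (0.65 ± 0.16, adjusted p = 0.0113, lost without H-KO replicate 2 at 0.0622) and in Cyp4f14 (1.999 ± 0.55, adjusted p = 0.0249). The Cyp4f14 difference rested on BH-KO replicate 1, without which it was 0.55 (adjusted p = 0.0969), and was lost without any 1 of the H-KO replicates (0.0586 to 0.0921). BH-KO livers were lower in Cyp4b1 (-1.09 ± 0.33, adjusted p = 0.0346), which was lost without any library but H-KO replicate 3 (0.0504 to 0.132). They were also lower in Cyp4a12b (-3.98 ± 1.12, adjusted p = 0.0276), where the sum with Cyp4a12a did not differ detectably (-1.04 ± 1.21, adjusted p = 0.598). The Cyp4a12b call was lost without H-KO replicate 3 (0.0875) or BH-KO replicate 2 (0.0748) or 3 (0.0776). With upper-quartile scaling, 48.8% of all calls in this comparison were higher in BH-KO, in place of 61.7%. For the interaction of BH with H the share was 51.9% in place of 62.2%, and for that of BH-HF with BH it was 43.9% in place of 56.5%.

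The 9 untested members had 1 to 40 counts over all 18 libraries and at most 1.83 CPM in any of them. They were Cyp3a57, Cyp4a29, Cyp4a30b, Cyp4f18, Cyp4f37, Cyp4f39, Cyp4f40, Cyp4x1 and Cyp4x1os, of which Cyp4f18, a leukotriene-metabolising enzyme of neutrophils, had the 40 counts. Without strand information, reads of Cyp4x1 and Cyp4x1os cannot be told apart. The highest value, that of Cyp3a57, was in BH-WT replicate 2.

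Genes that regulate or serve these enzymes were counted from lists chosen by function. As background, 34.9% of all tested genes were called in H-KO (19.1% lower) and 28.6% in BH-KO (14.2% lower). Of 10 regulators, 7 fell and 1 rose in H-KO livers, and 7 fell and 1 rose in BH-KO livers. Nr1i3, the constitutive androstane receptor, had 1.30, 0.755 and 1.56 CPM in H-KO livers, against 39.4, 34.0 and 53.3 CPM in H-WT livers, and fell by 5.10 ± 0.86 (adjusted p = 0.000639). It had 12.5, 0.949 and 1.495 CPM in BH-KO livers, against 67.8, 27.8 and 63.2 CPM in BH-WT livers, and fell by 3.56 ± 0.75 (adjusted p = 0.00416). In both lines all KO livers were below all WT livers. Ppara fell by 2.51 ± 0.39 in H-KO (adjusted p = 0.00033) and by 2.14 ± 0.39 in BH-KO (adjusted p = 0.00138). Nr1i2, the pregnane X receptor, rose by 0.47 ± 0.17 in H-KO (adjusted p = 0.0474), a call lost without H-WT replicate 3 (adjusted p = 0.0527). With BH-KO replicate 1 left out, Nr1i3 fell by 5.41 ± 0.72 in BH-KO (adjusted p = 7.52e-05), and Nr1i2 fell by 0.50 ± 0.19 (adjusted p = 0.0471). Of 15 other Ppara targets, 4 fell and 5 rose in H-KO, and 6 fell and 4 rose in BH-KO. Among them Acot1 rose by 3.81 ± 0.78 in H-KO (adjusted p = 0.00214). Of 8 other targets of the pregnane X and constitutive androstane receptors, 1 fell and 3 rose in H-KO, and 1 fell and 4 rose in BH-KO. The carboxylesterase Ces2a fell by 3.39 ± 0.56 in H-KO (adjusted p = 0.000522), and Cyp2b10 rose by 1.75 ± 0.55 in BH-KO (adjusted p = 0.0297), which was lost without BH-WT replicate 2 (adjusted p = 0.104). Of 7 electron-transfer partners and haem genes, 3 fell and 1 rose in H-KO: Pgrmc1, Cyb5r3 and Cyb5b fell, and Por, the reductase that feeds electrons to all microsomal P450 enzymes, rose by 1.29 ± 0.38 (adjusted p = 0.0147). In BH-KO only Pgrmc1 fell (by 0.68 ± 0.20, adjusted p = 0.0174), and none rose. With BH-KO replicate 1 left out, Pgrmc1 and Cyb5r3 fell and Cyb5a rose. None of these lists had a call in the high-fat KO comparison, where 0 of all 13958 tested genes were called.

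Marker genes of other cells moved with some comparisons. The shares of all genes called, given above, are the background for these counts as well. Of 5 bile duct markers, 3 rose in H-KO and 2 in BH-KO, and none fell. With BH-KO replicate 1 left out, 2 rose and 2 fell in BH-KO. They summed to 110 to 171 CPM in H-KO against 32.9 to 57.7 CPM in H-WT livers, and to 103 to 339 CPM in BH-KO against 39.6 to 76.3 CPM in BH-WT livers. Of 6 hepatocyte markers, 3 fell in H-KO (2 fell and 1 rose without H-WT replicate 3) and 1 fell and 1 rose in BH-KO (2 fell and 1 rose without BH-KO replicate 1; 1 fell without BH-WT replicate 2). Of 6 stellate cell markers, 2 fell in H-KO and 1 in BH-KO, and of 6 endothelial markers 1 fell in BH-KO; none of either list was called in BH-KO without BH-WT replicate 2. None of the tested neutrophil (2 of 5) and lymphocyte (1 of 4) markers was called. The part of these cells in the results above was not tested.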

How the data were processed

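Total liver RNA was sequenced with Illumina libraries, per the labels' protocols. The deposited values are whole-number counts per gene, not normalized by the authors, in a single table with 1 column per library. All 18 columns were used. Reads were aligned with STAR 2.6 to mm10, per the submitters' processing notes. The sources used here do not name the counter or its treatment of strand and of multi-matching reads.

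Samples were grouped by their labels. Counts were tested with edgeR 4.0.16 in R 4.3.3, with TMM scaling, filterByExpr (minimum count 10, which kept 13958 genes and left 38678 untested), 1 mean per group over 18 libraries (12 residual degrees of freedom) and the two-sided robust quasi-likelihood F-test. P-values were adjusted by Benjamini-Hochberg over all genes tested, and genes were called under 0.05, in 8 comparisons. CPM is relative to the TMM-scaled total. A gene at 0 in a group was set against 3 counts over that group, which covers counting error only. Coordinates and exon lengths are from GENCODE M21. The tests were tried on simulated counts.

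Every member is accounted for. Those with a group mean of at least 5 CPM that were called in a KO comparison or an interaction are given per library. The members, lists and tests were chosen with earlier results of these data known. Replicate numbers do not pair the samples. Alternatives were DESeq2 1.42.0, other scalings, no filter, the compared groups alone, a replicate block, summed paralogs, and leaving out libraries. Leaving libraries out of the list counts and of the lower bounds was chosen after seeing the data. No protein table was used, so copies that share a number were summed.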

Additional observations from a re-analysis of the deposited data

Results flagged for a closer look

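The KO effect of 2 members differed between the lines by the interaction test. For Cyp1a2 the effect in BH livers exceeded that in H livers by 2.71 on the log2 scale (adjusted p = 0.00371); it fell in H-KO and overlapped between BH-KO and BH-WT. For Cyp4f15 the difference was 0.95 (adjusted p = 0.0208), with an adjusted p of 0.0104 to 0.0627 when 1 library was left out. No sample was tested for lying apart within a group, since groups of 3 are too small for that test.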

How the results depend on the processing

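Without 1 library in turn, H-KO against H-WT called 7 to 12 of 24 members (15 with all), BH-KO against BH-WT 3 to 13 (7 with all), the BH minus H interaction 1 to 4 (2 with all), the BH-HF minus BH interaction 0 to 7 (0 with all), BH-KO against H-KO 2 to 6 (5 with all) and BH-HF-WT against BH-WT 2 to 6 (5 with all). Without both H-WT replicate 3 and BH-KO replicate 1 the BH-KO comparison called 17, the BH-HF minus BH interaction 7, and BH-WT against H-WT 1 in place of 0. For BH-WT against H-WT, 0.544% of all genes were then called, and without H-WT replicate 3 alone 0 members were called. Leaving out BH-KO replicate 1 alone gave 41.8% of all genes in the BH-KO comparison and 22% in the BH-HF minus BH interaction. With no filter on low counts the H-KO comparison called 9, BH-KO against BH-WT 4 and BH-KO against H-KO 3. Fitting only the groups compared gave 1 in BH-KO against BH-WT, 3 in BH-KO against H-KO and 3 in BH-HF-WT against BH-WT. DESeq2 called 4 in the BH minus H interaction, 3 in the BH-HF minus BH interaction and 11 in BH-HF-WT against BH-WT. Of all genes it called 1394, 1315 and 1495 in these comparisons. The share of all genes called is not given here for the other runs, so their counts carry no background. The cause of these shifts was not tested.

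Of 34 calls of single members, none changed direction under any alternative run, and 12 held without every library. With no filter 11 were lost, with only the groups compared 13, with upper-quartile factors 2, with paralogs summed 2, and with DESeq2 or its size factors 0. Samples of the same number did not deviate together (correlations -0.27 to 0.134), so the numbers do not pair samples. With the replicate block the counts were 14 in H-KO and 6 in BH-KO, and 2 calls were lost (Cyp3a11 in H-KO, adjusted p = 0.0736, and Cyp3a41a in BH-KO, 0.0536). The other counts with the replicate block were the same. Members with under 5 CPM rest on few counts.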

Other observations

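The pseudogene Cyp3a63-ps, left out of the members by its symbol, had 273 counts in H-WT replicate 3, 140 in BH-WT replicate 2, 31 in BH-WT replicate 3 and 7 in BH-KO replicate 3, and at most 1 in each of the other 14 libraries. The first 3 of these livers are also the 3 with the most Cyp3a41a. The other 6 pseudogenes had 0 to 4 counts per library.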
